A study of Homo sapiens with 36 samples.

Results

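Severe and mild hypoxia were compared in K562 cells after 24 h, as 3 libraries from cells held at 1% oxygen against 3 from cells held at 5% oxygen, 6 of the 36 libraries of the series. The other libraries came from the same line at 6 h, 3 d and 6 d and from 21% oxygen, 3 for each combination of oxygen level and time. K562 is a human erythroleukemia line that carries the BCR-ABL1 fusion and makes embryonic and fetal globins, and no treatment other than the oxygen level and no genetic change were named for any group. Each oxygen level had its own incubator, so oxygen level and incubator cannot be told apart. The libraries were chosen by their labelled oxygen level and time alone. RNA was sequenced after poly(A) selection, and levels are given in FPKM, a fragment number scaled for the length of the transcript and the size of the library. Of 21950 genes in the table, the 10412 with a mean of at least 1 FPKM over the 6 libraries were tested. Differences are log2(FPKM + 1) at 1% minus that at 5% oxygen, tested with limma, and a gene was called at a Benjamini-Hochberg adjusted p under 0.05 over all genes tested.

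Cells sense oxygen through the hypoxia-inducible factors (HIF), dimers of an alpha subunit such as HIF1A or EPAS1 with ARNT. When oxygen is plentiful, prolyl hydroxylases of the EGLN family mark the alpha subunit, VHL binds it and it is degraded, so much of the regulation does not show in the mRNA of the factor itself. When oxygen falls, the alpha subunit persists and binds short core motifs, ACGTG among them. These motifs lie near genes for glucose uptake, glycolysis, mitophagy and the hydroxylases themselves. Proteins of the heat shock system and the cold-inducible RNA-binding proteins RBM3 and CIRBP respond to temperature and to other stresses.

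At 24 h few genes were called between 1% and 5% oxygen, and most of the calls were higher at 1%. There were 146 calls, 1.4% of the genes tested. Of these, 125 were higher at 1% (1.2%) and 21 were lower (0.202%). With each library forced to the same distribution (quantile normalization), 187 were higher and 108 lower, so the share of higher calls went from 85.6% to 63.4%. The median difference over all genes tested was 0.01. Among the calls, 16 were at least 2-fold higher on the log2(FPKM + 1) scale. The higher calls had a median of 0.66, and the lower calls of -0.63. Genes whose 3 libraries at 1% all lay above the 3 at 5% numbered 1388, 13.3% of those tested, and 996 (9.57%) lay wholly below. The number of calls dropped when most of the libraries were left out: it was 19 without replicate 1, 25 without replicate 2 and 46 without replicate 3 of 1% oxygen. It was 26 without replicate 2 of 5% oxygen, 106 without replicate 1 and 170 without replicate 3.

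**Figure D1:**
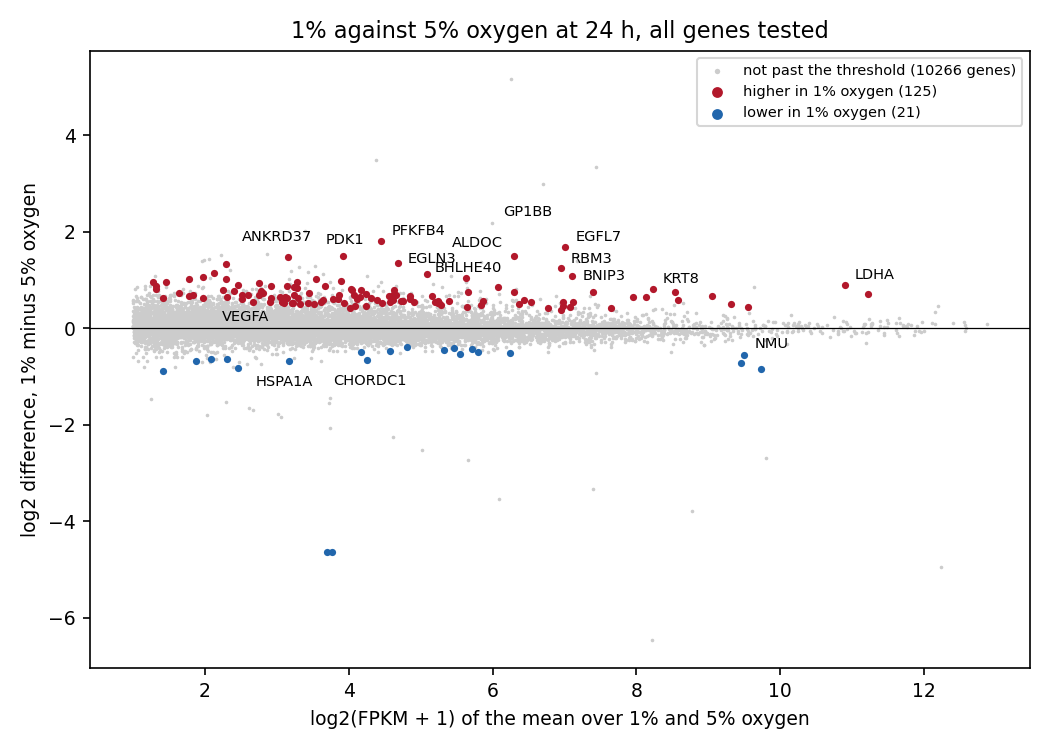
Log2 difference between 1% and 5% oxygen at 24 h (vertical) against mean level as log2(FPKM + 1) (horizontal) for the 10412 genes tested, with 125 genes higher at 1% in red, 21 lower in blue and the rest in gray. Called rises reach 1.80 (PFKFB4); GP1BB, at 2.19, was not called, and the blue pair near the bottom are SNAR-D and SCARNA15, listed at 0 in all 3 libraries at 1%.

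Markers of the line were found in all 6 libraries, which differed among themselves mainly at 5%. Between 16484 and 18333 genes were above 0, and relative depth, read from the values that single fragments give, lay between 0.747 and 1; the table holds no counts, so the true depth is unknown. The embryonic and fetal globins that mark the line were abundant in each: HBZ lay between 3722 and 5891 FPKM, HBE1 between 2749 and 3785 and HBG1 between 920.2 and 1157. The listed cofactor ZFPM1 was near 0, between 0.143 and 0.214 FPKM. The 4 fibroblast markers summed to at most 3.96 FPKM. The 9 markers of other blood cells summed to between 113 and 138 FPKM at 1% and between 83.1 and 98.9 at 5%, chiefly from CD3D, and their part in the results was not tested. No marker of fibroblasts or other blood cells on these lists was at 0 in all 6 libraries. Olfactory receptor genes, of which blood cells are expected to express few, were above 0 for 26.6% to 31.0% of 394 genes at 1%. At 5% that share was 21.6% in replicate 1, 37.3% in replicate 2 and 67.3% in replicate 3, so replicate 3 stood apart. The labels do not say that replicates were separate cultures, so the p-values speak of the scatter among these libraries, which may be technical. In bulk RNA, fewer cells of a type and less RNA per cell cannot be told apart.

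Promoters of the genes that carried the contrast are shown because the motifs of both pathways can be read in some of them. The sequences are RefSeq's (GRCh38.p14), the 250 bases before the start of each gene, read 5′ to 3′ on the gene's strand. Capitals mark ACGTG on either strand, so that the palindrome CACGTG holds a match on each.
ALDOC, chr17:28576896-28577145, minus strand: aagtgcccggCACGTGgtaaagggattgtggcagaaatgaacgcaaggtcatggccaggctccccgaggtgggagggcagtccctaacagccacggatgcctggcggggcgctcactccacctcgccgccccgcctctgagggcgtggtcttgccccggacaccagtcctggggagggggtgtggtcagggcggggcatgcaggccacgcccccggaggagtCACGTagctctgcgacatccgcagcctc
ANKRD37, chr4:185396591-185396840, plus strand: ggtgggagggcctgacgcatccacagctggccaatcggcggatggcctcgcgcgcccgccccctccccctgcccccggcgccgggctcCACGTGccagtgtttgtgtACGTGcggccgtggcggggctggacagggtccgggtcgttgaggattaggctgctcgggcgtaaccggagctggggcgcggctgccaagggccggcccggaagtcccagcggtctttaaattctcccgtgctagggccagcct
BHLHE40, chr3:4979187-4979436, plus strand: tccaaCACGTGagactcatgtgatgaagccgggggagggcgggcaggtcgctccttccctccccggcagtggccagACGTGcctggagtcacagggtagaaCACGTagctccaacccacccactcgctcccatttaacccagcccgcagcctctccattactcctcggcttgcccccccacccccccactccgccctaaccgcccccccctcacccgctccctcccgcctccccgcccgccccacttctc
BNIP3, chr10:131981924-131982173, minus strand: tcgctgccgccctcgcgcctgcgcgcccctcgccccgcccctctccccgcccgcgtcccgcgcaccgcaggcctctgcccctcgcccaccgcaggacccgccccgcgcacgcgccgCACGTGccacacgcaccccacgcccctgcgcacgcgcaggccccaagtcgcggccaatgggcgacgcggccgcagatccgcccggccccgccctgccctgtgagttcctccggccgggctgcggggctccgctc
LDHA, chr11:18394313-18394562, plus strand: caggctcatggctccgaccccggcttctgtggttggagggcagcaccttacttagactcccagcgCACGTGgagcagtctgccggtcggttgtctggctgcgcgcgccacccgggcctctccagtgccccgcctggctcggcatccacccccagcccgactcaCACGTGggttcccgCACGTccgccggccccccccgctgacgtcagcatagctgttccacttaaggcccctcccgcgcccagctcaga

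ACGTG occurs on either strand in 21.6% of 27305 promoters of 300 bases (250 before to 50 after the start) and in 27.95% of those of the 8308 tested genes that have one. Among the genes higher at 1% the share was 26.5% (27 of 102), close to the background. Among the few genes lower at 1% it was 40% (6 of 15). It was 7 of 11 for the called genes of the glycolysis list and 10 of 13 for the called genes of the list of other HIF targets, both lists made of known targets. PFKFB4, EGFL7, PDK1 and EGLN3, which were among the strongest rises, had no ACGTG in this window. That says only that these letters are not there. Other forms of the core motif were not searched.

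The second motif, GAA-NN-TTC-NN-GAA (N is any base), the inverted repeat of the heat shock element, was searched on both strands and is in capitals in a pair of promoters of genes that were lower at 1%.
CHORDC1, chr11:90223050-90223299, minus strand: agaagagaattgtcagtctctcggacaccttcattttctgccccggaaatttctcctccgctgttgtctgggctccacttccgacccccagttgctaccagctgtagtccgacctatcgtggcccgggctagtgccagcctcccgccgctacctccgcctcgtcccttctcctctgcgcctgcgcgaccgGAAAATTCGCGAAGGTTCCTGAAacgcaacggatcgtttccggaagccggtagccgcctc
SERPINH1, chr11:75562003-75562252, plus strand: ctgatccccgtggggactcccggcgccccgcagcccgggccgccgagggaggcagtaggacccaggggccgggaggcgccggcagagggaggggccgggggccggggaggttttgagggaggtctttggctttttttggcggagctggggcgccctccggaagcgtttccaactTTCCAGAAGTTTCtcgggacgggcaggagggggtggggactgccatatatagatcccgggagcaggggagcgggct

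It occurs in 0.487% of all promoters and in 26 of the 8308 tested genes with one (0.313%). Of the genes lower at 1%, 15 had a promoter in the table and 2 of them held it, CHORDC1 and SERPINH1. None of the 102 promoters of genes that were higher held it. The call of SERPINH1 was lost in 9 of 14 alternatives and that of CHORDC1 in 2 of 14. A match is a description of sequence and not a site of binding.

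Among the sensors, the prolyl hydroxylase EGLN3, itself a HIF target that marks the alpha subunit for degradation, was 36.8, 34.7 and 35.9 FPKM at 1% and 14.9, 12.5 and 13.1 at 5%. The groups did not overlap, and the difference was 1.35 ± 0.09 (SE; adjusted p = 0.000172). EGLN1, the main prolyl hydroxylase of most cells, rose by less, from 2.85 ± 0.29 (SD, n = 3) to 5.01 ± 0.44 FPKM (0.64, adjusted p = 0.0371). The mRNA of HIF1A was not called: it was at 10.6 FPKM at 1% and 12.2 at 5% (-0.19, adjusted p = 0.399). EPAS1, the alpha subunit of the second factor, was at 3.52 to 3.98 FPKM at 1% and 1.61 to 2.48 at 5% (0.67, adjusted p = 0.0544), a larger difference than that of EGLN1. Both results lay close to the threshold: the fit of 35 libraries used to compare times called EPAS1 (adjusted p = 0.00635), and the call of EGLN1 was lost in 9 of 13 alternatives, without any 1 of the 6 libraries among them. In the list of HIF subunits and sensors, 2 of 8 members tested rose and none fell; the median was 0.08. Whether hydroxylases and factors differed from each other in their response was not tested.

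Many of the glycolysis genes were called. Of 22 members of the list of glycolysis and glucose uptake, 12 rose and none fell, where 1.2% of all genes tested rose, and the median was 0.63 against 0.01. The list was chosen with earlier results of these data known. PFKFB4, which makes and breaks an activator of phosphofructokinase and so tunes the pace of glycolysis, was 31.5, 32.4 and 35.02 FPKM at 1% and 8.07, 9.60 and 8.53 at 5%. The lowest library at 1% was more than 3 times the highest at 5%, and the difference was 1.80 ± 0.09 (SE; adjusted p = 3.49e-05). ALDOC, an aldolase isoform, was 114, 110.4 and 122 FPKM against 39.7, 39.7 and 41.0. Its libraries at 5% were nearly equal to each other, and the difference was 1.503 (adjusted p = 3.16e-05). PDK1, the kinase that shuts pyruvate out of the mitochondrion, was 19.3, 22.2 and 22.2 FPKM against 6.89, 6.96 and 6.87 (1.49, adjusted p = 0.000116).

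Other enzymes of the pathway rose by less on the log scale, some of them from far higher levels. LDHA, which makes lactate, went from 1332 ± 56 (SD, n = 3) to 2476 ± 77 FPKM (0.89, adjusted p = 0.00207). ALDOA, the main aldolase, went from 1811 ± 92 to 2941 ± 15 FPKM (0.70, adjusted p = 0.00865). HK2, the inducible hexokinase, went from 12.2 to 21.8 FPKM (0.79, adjusted p = 0.00326). PGK1, GPI, PKM, PGAM1, ENO2 and the glucose transporter SLC2A3 were also called, between 0.46 and 0.83. The other 10 members were not called. GAPDH was the nearest of them (0.47, adjusted p = 0.0511), the transporter SLC2A1 was at 0.30 (adjusted p = 0.12), and PFKM, the muscle phosphofructokinase, was the only member below 0 (-0.36, adjusted p = 0.154). With a library left out the number of calls in the list ranged from 4 to 13: it was 4 without replicate 1 and 5 without replicate 2 of 1% oxygen, and 5 without replicate 2 of 5% oxygen. The median stayed between 0.58 and 0.66 in these settings.

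**Figure D2:**
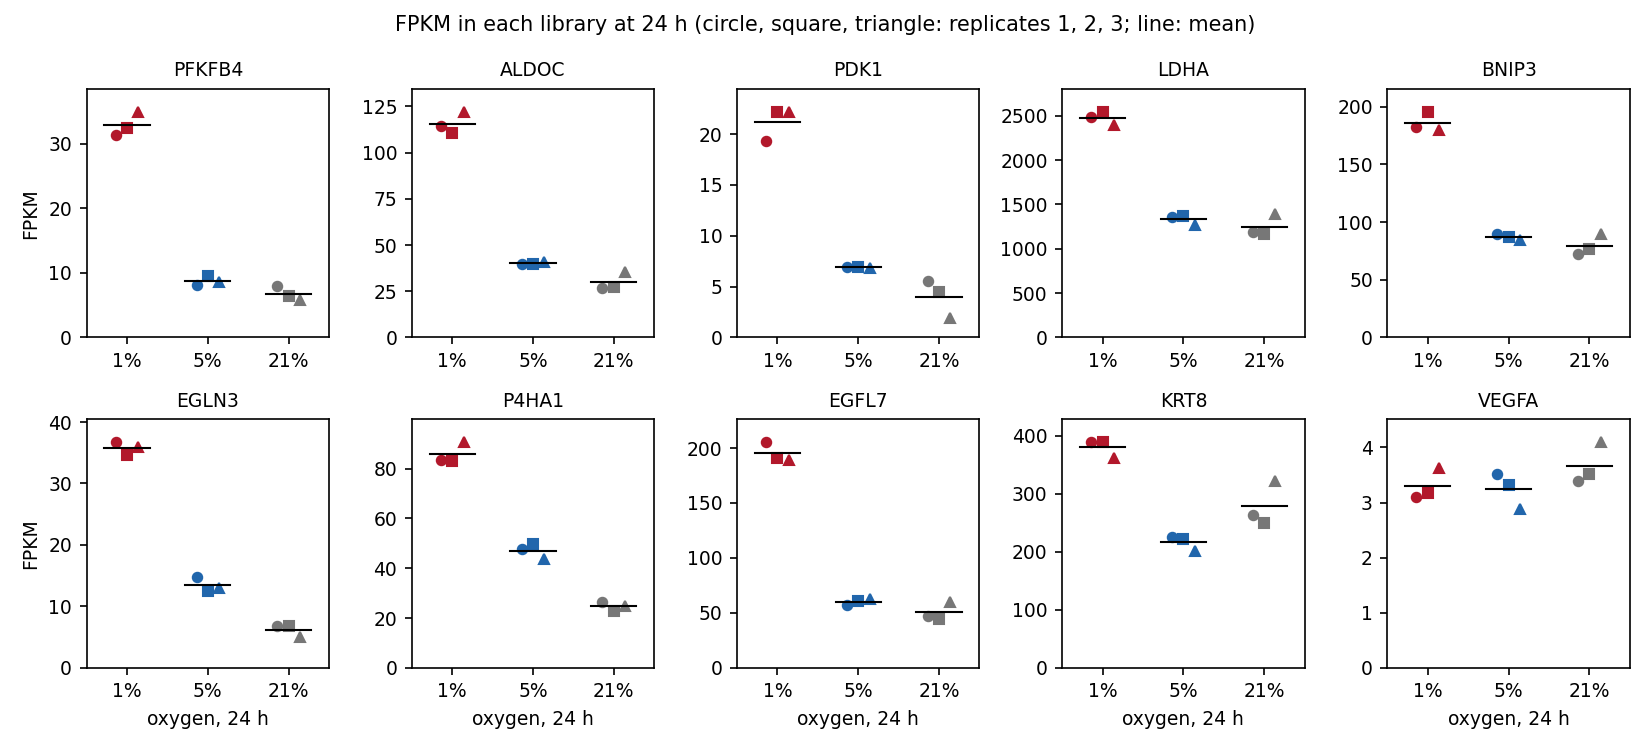
FPKM (vertical, from 0) of 10 genes in each 24 h library at 1%, 5% and 21% oxygen, with symbols for replicates and a line at the mean. In 9 of the genes all 3 libraries at 1% lie above all 3 at 5%, while VEGFA lies between 2.88 and 3.63 FPKM in both groups.

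Of the 35 genes listed as other HIF targets, 24 passed the filter, and 15 of these rose and none fell. Their median was 0.50. BNIP3 and BNIP3L, outer-membrane receptors that send mitochondria to autophagy, rose together. BNIP3 was 182, 196 and 179 FPKM at 1% and 90.0, 87.0 and 84.5 at 5% (1.08, adjusted p = 0.000199). BNIP3L was 63.6, 67.3 and 66.7 FPKM against 34.3, 28.4 and 31.6 (1.05, adjusted p = 0.001). In both, every library at 1% was above every library at 5%.

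Enzymes that use oxygen as a substrate were a further group. P4HA1, the catalytic subunit of collagen prolyl hydroxylase, was 83.4, 83.2 and 90.7 FPKM at 1% and 47.7, 49.6 and 43.8 at 5% (0.85, adjusted p = 0.00207). Its paralog P4HA2 went from 7.89 to 11.8 FPKM (0.52, adjusted p = 0.0393), and the other 4 members of that list tested were not called. The call of P4HA2 was lost in 10 of 14 alternatives. KDM3A, a demethylase of histone H3 lysine 9, was 18.7, 19.4 and 17.7 FPKM against 8.54, 9.14 and 9.24 (0.98, adjusted p = 0.00117). It was the 1 call among 16 JmjC histone demethylases tested. The list's median was 0.06.

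Other members of the list varied in their response. BHLHE40, a transcriptional repressor, was 45.9, 46.4 and 43.9 FPKM at 1% and 21.3, 20.0 and 19.9 at 5% (1.12, adjusted p = 0.000199). ANKRD37, a small ankyrin repeat protein known as a HIF target, was 11.2, 13.3 and 11.5 FPKM against 4.87, 4.00 and 2.49 (1.47, adjusted p = 0.00865). DDIT4, an inhibitor of mTORC1 signaling, went from 278 ± 17 to 466 ± 11 FPKM (0.75, adjusted p = 0.00355). Other members called were HILPDA, AK4, FUT11, GBE1 and WSB1, between 0.44 and 0.68. VEGFA, the angiogenic growth factor, was 3.10, 3.18 and 3.63 FPKM at 1% and 3.52, 3.32 and 2.88 at 5% (0.02, adjusted p = 0.95), and its sign turned in 3 of 13 alternatives. CA9, ADM and NDRG1, often used as markers of hypoxia, were below the filter: CA9 was 0.849, 0.336 and 1.24 FPKM at 1%, and at 5% was listed at 0 in replicates 1 and 3 and at 0.176 in replicate 2. NDRG1 was at most 0.213 FPKM in any of the 6 libraries. The 15 calls of this list became 6 without replicate 1, 7 without replicate 2 and 8 without replicate 3 of 1% oxygen, and 9, 7 and 9 without replicates 1, 2 and 3 of 5% oxygen. The median stayed between 0.47 and 0.52.

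Among genes outside these lists, EGFL7, which encodes a secreted protein of blood vessel walls, had the strongest test of any rise. It was 206, 191 and 189 FPKM at 1% and 57.3, 60.9 and 62.4 at 5% (1.68 ± 0.08 SE, adjusted p = 3.00e-05). The groups were far apart, and the ratio of mean FPKM was 3.24. In the transcript table, 3 records that RefSeq lists as noncoding took 94.1% to 96.3% of the EGFL7 FPKM at 1%, and 68.9% to 88.6% at 5%. Splitting overlapping isoforms is an estimate, so these shares carry an error that the table does not give.

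SLC6A8, the creatine transporter, was 5.55, 5.84 and 6.57 FPKM against 1.59, 1.97 and 1.82 (1.32, adjusted p = 0.00117). SEMA4C, a membrane semaphorin, was 14.0, 14.5 and 15.2 FPKM against 7.52, 5.86 and 6.81 (1.02, adjusted p = 0.00312). CRAT, carnitine acetyltransferase, had wider groups, 4.46 to 6.33 FPKM against 1.55 to 3.18 (1.02, adjusted p = 0.0453). TNFSF9, the ligand of a costimulatory receptor of T cells, was 15.6, 9.45 and 10.7 FPKM against 5.17, 5.39 and 6.18 (0.95, adjusted p = 0.0353). These 2 calls were weak: that of CRAT was lost in 11 of 13 alternatives and that of TNFSF9 in 11 of 14. CDKN1A, the p21 inhibitor of the cell cycle, went from 1.28 ± 0.35 to 3.58 ± 0.65 FPKM (1.01, adjusted p = 0.0256), the 1 call among 12 cell cycle inhibitors and p53 targets tested. The call of CDKN1A was lost in 6 of 13 alternatives.

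Genes of the cytoskeleton gave 3 calls among 12 tested, all higher, with a median of 0.32. KRT8, a keratin of simple epithelia that K562 cells also make, was 389.7, 389 and 363 FPKM at 1% and 226, 222 and 201 at 5% (0.81, adjusted p = 0.00263). KRT19 went from 125 to 211 FPKM (0.76, adjusted p = 0.00312), and vimentin (VIM), an intermediate filament of mesenchymal and blood cells, from 523 to 745 FPKM (0.51, adjusted p = 0.0311). KRT18, the usual partner of KRT8, was not called (0.26, adjusted p = 0.191), although the fit of 35 libraries called it (adjusted p = 0.0492). CD3D, listed as a lymphoid marker and present in K562, went from 57.4 ± 7.7 to 97.6 ± 10.6 FPKM (0.76, adjusted p = 0.024). Without replicate 1 of 1% oxygen only KRT8 of the 3 cytoskeletal calls was left. Over the alternatives the call was lost in 7 of 14 for VIM, 4 of 14 for CD3D and 1 of 14 for KRT19.

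Outside the HIF lists, RBM3 was among the strongest rises. It encodes an RNA-binding protein known to accumulate in mild cold, and was 173, 182 and 163 FPKM at 1% and 74.6, 72.5 and 68.4 at 5% (1.25 ± 0.08 SE, adjusted p = 0.000129). CIRBP, its relative, was 112, 109 and 105 FPKM against 80.1, 72.6 and 72.0 (0.53, adjusted p = 0.0202); it was singled out after its value was seen. Neither pair of groups overlapped. The 21% libraries stood on the side of 1%: RBM3 was 137, 135 and 159 FPKM there, and CIRBP was 97.7, 97.1 and 130.5. For RBM3 the 5% libraries were thus the lowest of the 3 oxygen levels. The mean at 5% was also the lowest for VIM (745 FPKM at 1%, 523 at 5% and 736 at 21%). It was not for BNIP3 (186, 87.2 and 79.5). The chaperone gene CHORDC1, described next, stood otherwise, at 19.8 FPKM at 21%, 22.3 at 5% and 13.8 at 1%.

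Of 20 cytosolic heat shock chaperones tested, 3 fell and none rose, where 0.202% of all genes tested fell; the median was -0.25. A difference below 0 was found in 18 of them, against 4917 of all 10412 genes. Other lists also leaned below 0: 25 of 28 genes of ribosome biogenesis and MYC, 16 of 20 aminoacyl-tRNA synthetases and 58 of 76 of the mitochondrial ribosome. CHORDC1, a partner of HSP90, was 13.7, 14.6 and 12.9 FPKM at 1% and 22.3, 23.2 and 21.3 at 5% (-0.66, adjusted p = 0.0106). HSPA1A, the inducible HSP70, was 6.58, 6.16 and 5.10 FPKM against 10.9, 9.48 and 9.71 (-0.67, adjusted p = 0.0301). HSPA1A is nearly identical to HSPA1B (-0.63, adjusted p = 0.123), and reads of the 2 genes may be split between them. Its call was lost in 9 of 14 alternatives, without any 1 of the 6 libraries among them. At 21% it was at 10.7 FPKM, nearer to 5% than to 1%. FKBP4, an HSP90 co-chaperone with prolyl isomerase activity, was 46.2, 44.3 and 44.6 FPKM against 64.6, 67.0 and 59.5 (-0.49, adjusted p = 0.0243).

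Outside that list fell PPID, another HSP90-binding isomerase, from 87.5 ± 4.7 to 61.3 ± 2.7 FPKM (-0.50, adjusted p = 0.022), and SERPINH1, the collagen chaperone also called HSP47, from 58.9 ± 3.7 to 43.6 ± 2.3 FPKM (-0.43, adjusted p = 0.0472). The call of SERPINH1 was lost in 9 of 14 alternatives and that of PPID in 6 of 14. The 21 ER chaperones and genes of the unfolded protein response had no call and a median of -0.12. The 3 chaperone calls were fragile: none was left without replicate 1 of 1% oxygen or without replicate 2 of 5% oxygen, 1 was left without replicate 2 or without replicate 3 of 1% oxygen, and 2 were left without replicate 1 of 5% oxygen. RBM3 kept its call in all 14 alternatives, and CIRBP lost its call in 6 of 14.

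**Figure D3:**
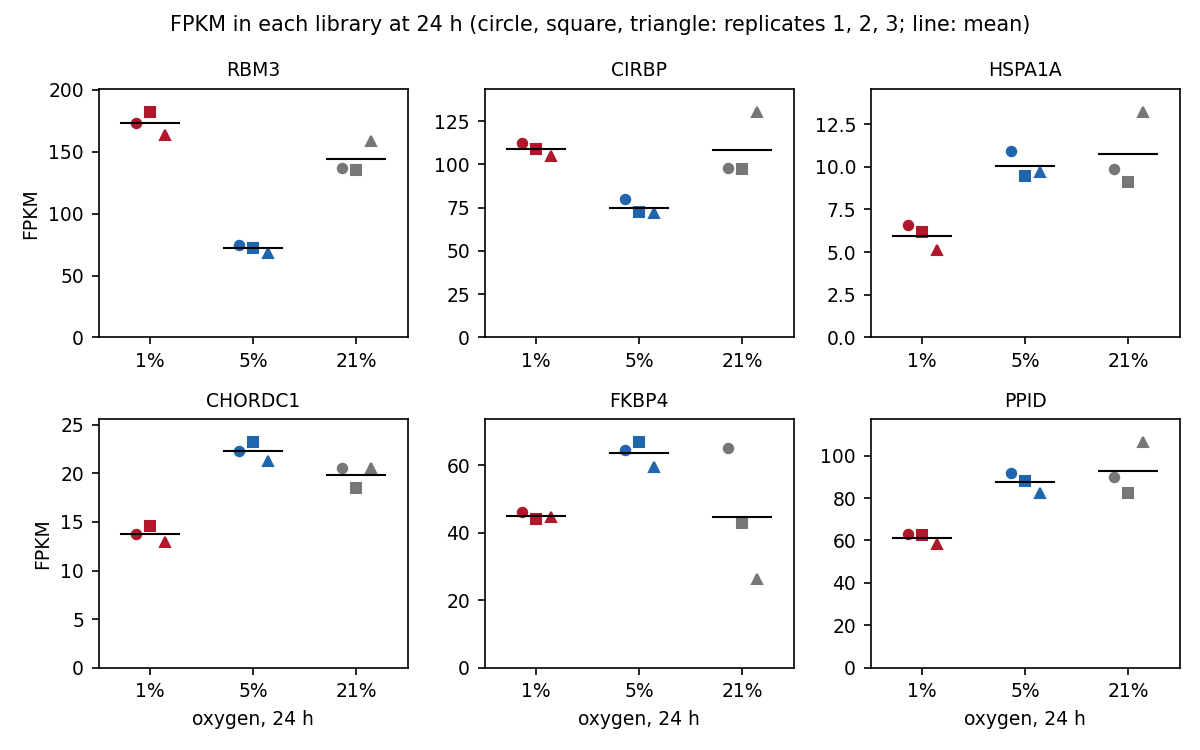
FPKM (vertical, from 0) of RBM3, CIRBP and 4 chaperone genes in each 24 h library at 1%, 5% and 21% oxygen, with symbols for replicates and a line at the mean. RBM3 and CIRBP are lowest at 5%, while the chaperone genes at 1% lie below all libraries at 5%, with the 21% libraries of FKBP4 spread from 26.4 to 65.1 FPKM.

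Other genes that fell were few and mostly unrelated by list. NMU, the neuropeptide neuromedin U, was 615, 619.7 and 522 FPKM at 1% and 955, 812 and 803 at 5% (-0.55, adjusted p = 0.0475). IGF1, the growth factor, went from 45.3 to 32.6 FPKM (-0.46, adjusted p = 0.0477). SERPINI1, a neuronal protease inhibitor, went from 6.05 to 2.92 FPKM (-0.83, adjusted p = 0.0475). IDH1, the cytosolic isocitrate dehydrogenase, fell from 49.3 to 36.7 FPKM (-0.42, adjusted p = 0.0393), whereas its mitochondrial paralog IDH2 rose from 30.03 to 43.5 FPKM (0.52, adjusted p = 0.0243). The amino acid transporter SLC7A5 went from 30.7 ± 0.9 to 23.2 ± 0.2 FPKM (-0.39, adjusted p = 0.0453), the 1 call among 20 genes of the ATF4 and amino acid response. The 2 calls more than 2-fold lower, SNAR-D and SCARNA15, are small RNA genes listed at 0 in all 3 libraries at 1% and at 18.5 to 36.8 FPKM at 5%; a listed 0 can be a failed estimate. BCYRN1 and the pseudogene RPL21P28 also fell (-0.72 and -0.84), and reads of a pseudogene cannot be separated surely from those of its parent gene. Most of these calls were weak. The call was lost in 8 of 14 alternatives for NMU, IGF1 and BCYRN1, and in 8 of 13 for SERPINI1. It was lost in 9 of 14 for SLC7A5, 10 of 14 for RPL21P28 and 7 of 14 for IDH2. Those of SNAR-D and SCARNA15 were lost in 2 of 14, and IDH1 was not followed through the alternatives. The limma fit of 35 libraries did not call SNAR-D (adjusted p = 0.186) or SCARNA15 (adjusted p = 0.133) at 24 h. Both also scattered widely within other groups. SNAR-D was at 41.8 ± 49.3 FPKM (SD, n = 3) at 21% oxygen at 24 h. SCARNA15 was at 9.57 ± 16.6 FPKM (SD, n = 3) at 1% oxygen at 6 h.

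Most other programs gave no call at 24 h. There were none among 42 genes of respiratory complex I (median -0.04), 40 of complexes II to V (-0.05), 76 of the mitochondrial ribosome (-0.08) and 28 of ribosome biogenesis and MYC (-0.16). MYC itself was at 88.6 FPKM against 107 (-0.26, adjusted p = 0.203). The erythroid lists gave none either: 23 globin and red cell membrane genes had a median of 0.05, 13 of heme synthesis 0.14, 11 erythroid transcription factors 0.06 and 13 of iron handling 0.05. TFRC, the transferrin receptor, came nearest, at 361 to 388 FPKM against 285 to 314 (0.31, adjusted p = 0.0997). Cholesterol and fatty acid synthesis, S phase, proteasome, NRF2, interferon and aminoacyl-tRNA synthetase lists had no call, with medians between -0.10 and 0.09. Single members were called higher in the lists of the TCA cycle (IDH2, 24 tested, median -0.03), cytosolic ribosomal proteins (RPL13A, 79 tested, 0.03), G2 phase and mitosis (BUB1, 27 tested, -0.005) and megakaryocyte genes (GP6, 3 tested). Of 17 immediate early genes, KLF10 and MCL1 were called higher (0.61 and 0.42), and the median was 0.28. The call was lost in 10 of 14 alternatives for MCL1 and in 7 of 14 for KLF10, RPL13A and IDH2. For BUB1 it was lost in 6 of 14 and for GP6 in 4 of 14. By limma, 1762 of all genes tested were at an unadjusted p under 0.05, and a simulation with 3 libraries a group recovered 49.6% of genes changed 1.5-fold, 84.5% of those changed 2-fold and 97.6% of those changed 4-fold, so that small shifts in these lists could have been missed.

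**Figure D4:**
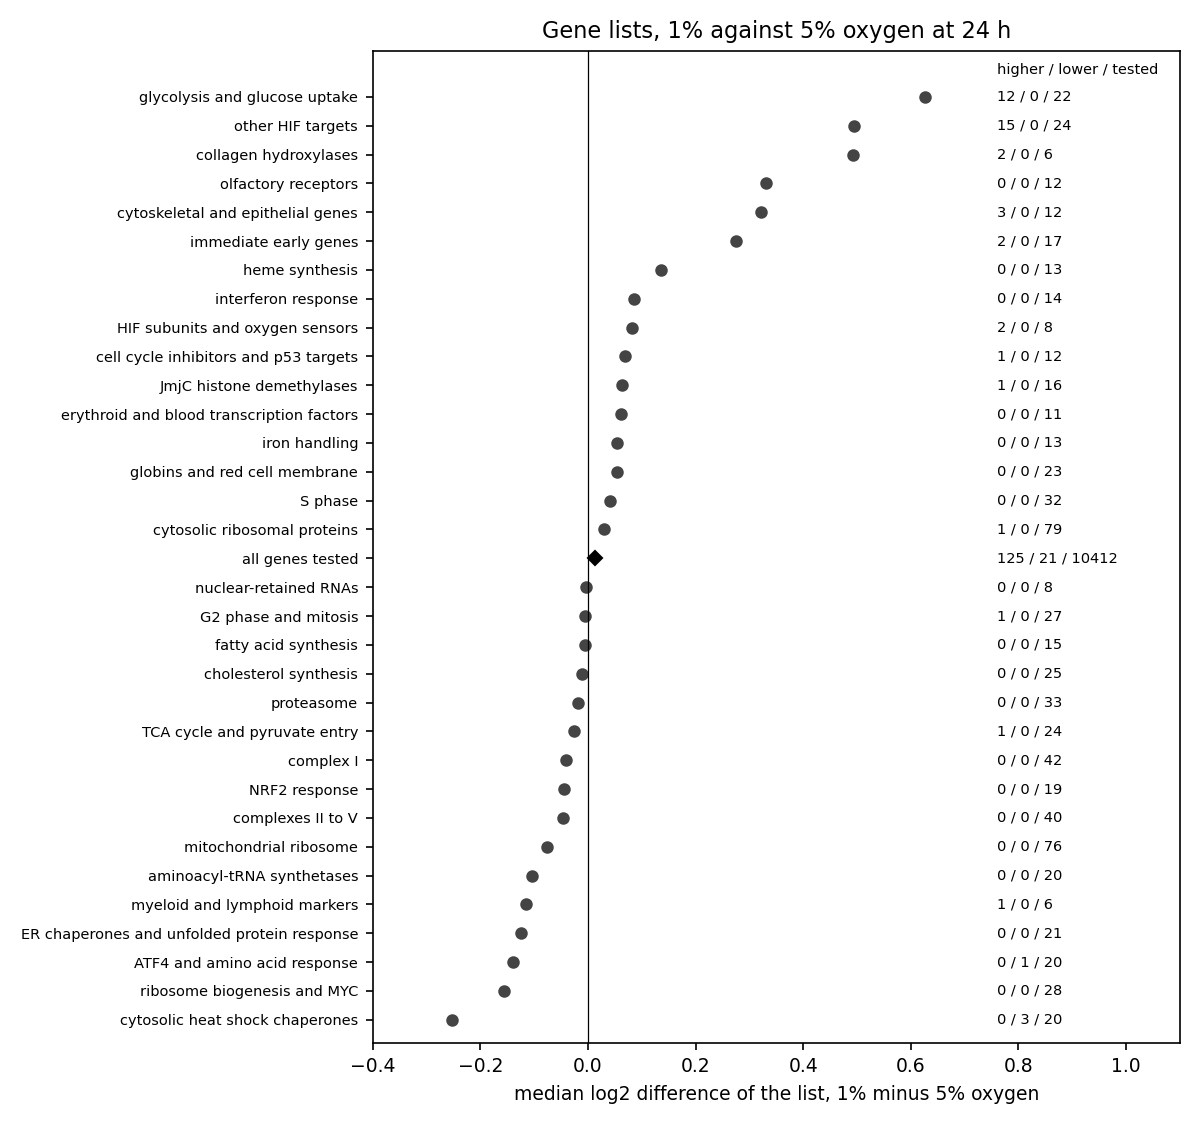
Median log2 difference, 1% minus 5% oxygen at 24 h, of each gene list with at least 6 members tested (horizontal), beside all genes tested (diamond, 0.01), with the numbers of members higher, lower and tested at the right. Glycolysis (0.63) and other HIF targets (0.50) lie farthest to the right, and cytosolic heat shock chaperones (-0.25) farthest to the left.

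GP1BB, a platelet glycoprotein, had a wide difference that was not called, and its 5% libraries lay far apart. It was 101, 42.7 and 127 FPKM at 1%, but 2.14, 22.1 and 82.3 in replicates 1, 2 and 3 at 5% (2.19 ± 0.99 SE, adjusted p = 0.305). KLF1, the master regulator of adult erythroid genes, was 47.7, 39.7 and 52.5 FPKM at 1% and 11.9, 24.4 and 54.4 at 5% (0.85, adjusted p = 0.351). The immediate early gene IER2 was 58.1, 44.5 and 57.0 FPKM at 1% and 8.77, 31.2 and 52.0 at 5%. In each of these, replicate 1 at 5% was near the 21% libraries (11.8 to 17.6 FPKM for KLF1) and replicate 3 near those at 1%.

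A rule set after these values were seen took genes of at least 5 FPKM whose 3 libraries at 5% spanned at least 4-fold. It found 35 genes, of which 20 encode small RNAs. Of the other 15, among them JUNB, SDHAF1, DAPK3, ACTR5 and NSMCE4A, replicate 1 was the lowest in 14 and replicate 3 the highest in 14. The same rule at 1% oxygen found 16, of which 15 encode small RNAs. None of the 15 genes at 5% was called, which follows in part from the rule, since a wide spread within a group makes a call less likely. Replicate 3 at 5% was also the library with 67.3% of olfactory receptor genes above 0; the part of this in the spread was not tested. Without that replicate the difference was 3.28 for GP1BB (adjusted p = 0.081) and 1.39 for KLF1 (adjusted p = 0.0511), and without replicate 1 it was 0.92 and 0.34.

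Whether the contrast at 24 h was that of other times was tested with interaction terms in a fit of 35 libraries, which left out replicate 3 of 1% oxygen at 3 d, a library that lists 0 for many genes. In that fit, 1.99% of 10586 genes were higher and 0.945% lower at 1% than at 5% at 24 h, against 1.14% and 0.123% at 6 h, 16.5% and 10.4% at 3 d and 16.1% and 11.4% at 6 d. The difference at 24 h was unlike that at 6 h in 62 genes (0.586%), unlike that at 3 d in 923 (8.72%) and unlike that at 6 d in 1782 (16.8%).

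The rises of PFKFB4, EGFL7, ALDOC, BNIP3 and LDHA at 24 h had no counterpart called at 6 h. EGFL7 was at 57.4 FPKM at 1% and 51.1 at 5% at 6 h, at 195 and 60.2 at 24 h, and at 397 and 393 at 3 d. Its difference at 24 h exceeded that at 6 h by 1.52 (adjusted p = 2.07e-07) and that at 3 d by 1.68 (adjusted p = 1.19e-07). ALDOC had a like course to 3 d, at 115.6 against 40.1 FPKM at 24 h and 335 against 347 at 3 d (24 h minus 3 d, 1.55, adjusted p = 8.17e-08). At 6 d ALDOC was again higher at 1% (0.40, adjusted p = 0.0016), and EGFL7 was not called (0.03, adjusted p = 0.845). BNIP3 had no difference called at 6 h (-0.04) or 3 d (-0.03), and was again higher at 1% at 6 d (0.82, adjusted p = 2.97e-09). None of these 3 genes had a difference called at 3 d. P4HA1 changed sign, from -0.37 at 6 h (adjusted p = 0.038) to 0.85 at 24 h (interaction 1.23, adjusted p = 6.23e-07). At 6 h it was 21.9 FPKM at 1% and 28.4 at 5%.

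RBM3 kept a different course. Its difference was 0.62 at 6 h, 1.25 at 24 h, 1.34 at 3 d and 1.52 at 6 d, past the threshold at each time, and larger at 24 h than at 6 h by 0.63 (adjusted p = 0.000485). CHORDC1 was lower at 1% at 6 h (-0.52, adjusted p = 0.00487), 24 h and 3 d (-0.42, adjusted p = 0.00376), and its difference at 24 h was not shown to be unlike that at 6 h (adjusted p = 0.631). HSPA1A was lower at 1% at 6 h (-1.04, adjusted p = 0.00027), a difference not shown to be unlike that at 24 h (adjusted p = 0.39), and had no call at 3 d (-0.16) or 6 d (0.09). Keratins and vimentin turned over later: KRT8 was higher at 1% at 24 h (0.81) and 3 d (0.60) and lower at 6 d (-1.70, adjusted p = 1.7e-14), when it was at 816 FPKM at 1% and 2657 at 5%. BHLHE40 likewise went from 1.12 at 24 h to -0.84 at 6 d (adjusted p = 4.52e-07).

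**Figure D5:**
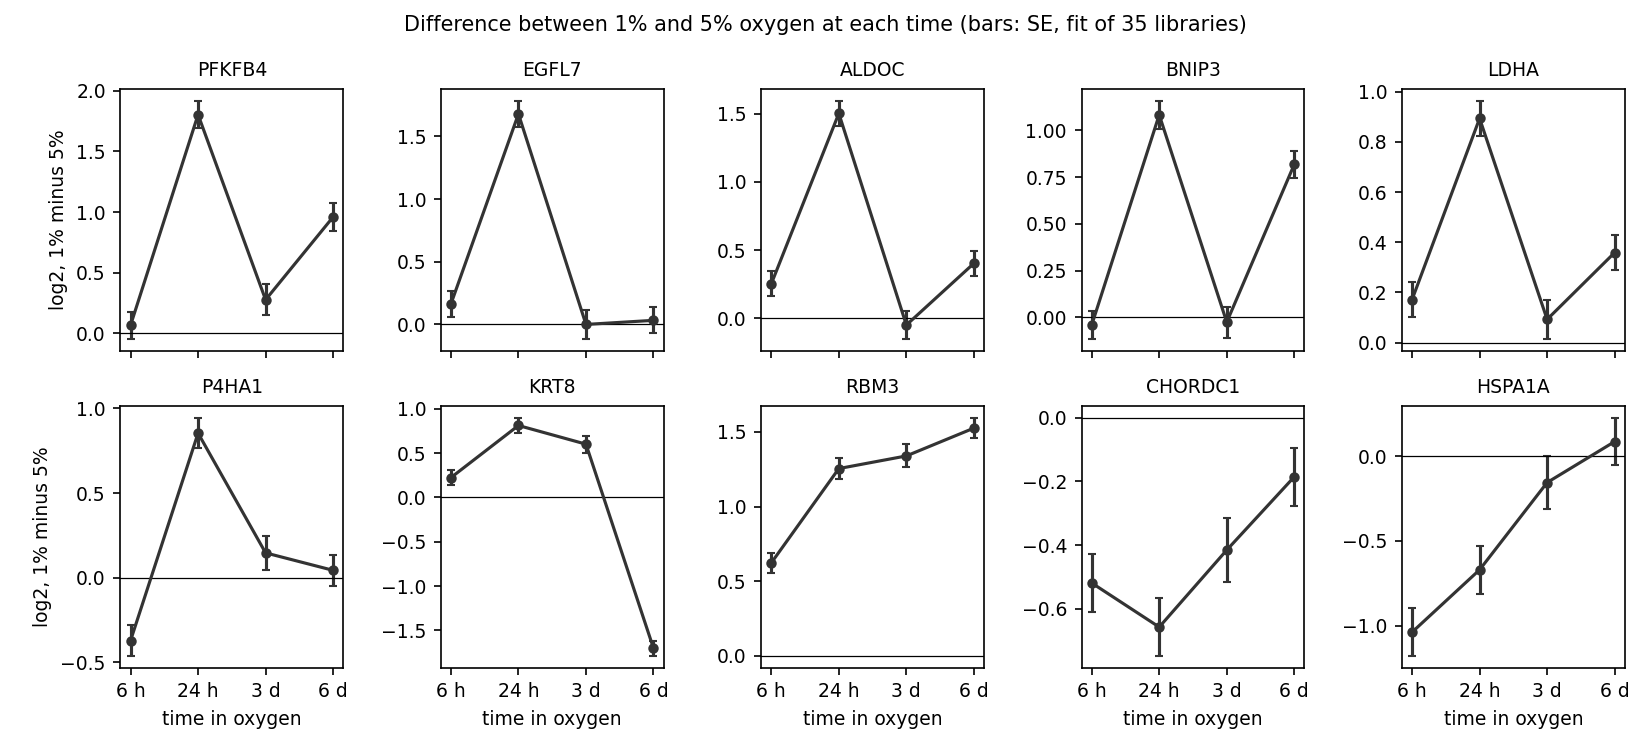
Log2 difference between 1% and 5% oxygen (vertical, scale of its own in each panel) at 6 h, 24 h, 3 d and 6 d for 10 genes, with SE bars from the fit of 35 libraries. EGFL7, ALDOC and BNIP3 peak at 24 h and are near 0 at 3 d, RBM3 is above 0 at all 4 times, and KRT8 falls to -1.70 at 6 d.

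Set beside the 24 h libraries at 21% oxygen, 1 of which deviates in depth, several of the genes that rose were at 5% nearer to 21% than to 1%. EGFL7 was 50.6 FPKM at 21%, 60.2 at 5% and 195 at 1%, and BNIP3 was 79.5, 87.2 and 186. LDHA was 1251, 1332 and 2476 FPKM, with 21% libraries (1161 to 1397) that overlapped those at 5% (1268 to 1367). EGLN3 and P4HA1 had a step at each level: EGLN3 was 6.20, 13.5 and 35.8 FPKM, and P4HA1 was 24.8, 47.0 and 85.8, with no overlap between any of the 3 groups in either gene. In other genes that rose, VIM, GP6, CDKN1A and SLC6A8 among them, the mean at 5% was below those at both 1% and 21%. The relative depth of the 21% libraries lay between 0.247 and 0.717, and the values at 21% were not tested here.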

How the data were processed

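Expression in K562 cells was deposited by the authors as FPKM per gene and per transcript, made with TopHat, Cufflinks and Cuffnorm per the submitters' processing notes; their versions, the genome build and the annotation were not given in the sources used here. Depth in reads is unknown, and coordinates are only those of RefSeq promoters (GRCh38.p14). Groups came from the labels. FPKM values were used as log2(FPKM + 1). Genes with a mean of at least 1 FPKM over the 6 libraries were tested with limma 3.58.1 (R 4.3.3; two-sided moderated tests, trended prior, 4 residual degrees of freedom, Benjamini-Hochberg adjustment, threshold 0.05). Interactions were fitted with 12 group means on 35 libraries, 10586 genes. The value of 1 fragment in weakly expressed genes gave relative depth. FPKM is relative to a library's total, so a few abundant RNAs can move all other values: 1 small RNA gene, RNU6-79, held 3.80% of the total in replicate 1 of 5% oxygen.

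The compared groups, the 34 gene lists and the rule for naming genes were chosen with earlier results of these data known, and patterns already seen there are no independent support. Genes named were a fixed set of 25 and the 15 largest rises and 15 largest falls. The rises and falls had at least 5 FPKM in the higher group and groups without overlap. Up to 4 called members of each list and the 4 smallest adjusted p of each interaction were named too, and some are left out. SERPINH1, CIRBP, KLF1, IER2, GP1BB and others described by their spread were added after their values were seen. ALDOA, DDIT4, IDH1, HSPA1B and further members of the glycolysis and HIF lists were also named outside this rule. Motifs were searched in RefSeq promoters matched by symbol, found for 8308 of 10412 genes tested.

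In simulated data (5 runs of 200 changed genes among 10412), 4.81% of the calls were false. Noise was drawn separately for each gene, with the same spread in both groups. The real libraries spread more widely at 5%, so the rates of the simulation may not hold for them. Alternatives were TPM rescaling, quantile normalization, a pseudocount of 0.1, no filter or a filter of 5 FPKM, the replicate number as a block, each library left out in turn, and fits of all groups. Figures were drawn with matplotlib 3.10.9 (Python 3.11.15).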

Additional observations from a re-analysis of the deposited data

Results flagged for a closer look

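The difference between 1% and 5% oxygen was not the same at 24 h as at other times, by the interaction term of limma in the fit of 35 libraries. It was unlike that at 6 h in 62 genes, of which 38 had a more positive difference at 24 h and 24 a more negative one. It was unlike that at 3 d in 923 genes and unlike that at 6 d in 1782. The differences at single times share no libraries. Every interaction uses the same 24 h libraries, so the interactions are not independent of each other. Leaving out replicate 3 of 5% oxygen at 24 h, which stands apart in its olfactory receptor genes, gave 133 genes for 6 h and 560 for 3 d.

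Against 6 h, the smallest adjusted p values belonged to BNIP3, a mitophagy receptor (1.12, adjusted p = 1.39e-07), PFKFB4 (1.74, adjusted p = 1.39e-07), EGFL7 (1.52, adjusted p = 2.07e-07) and the aldolase ALDOC (1.25, adjusted p = 6.23e-07). All 4 were more positive at 24 h. PFKFB4 was at 6.96 FPKM at 1% and 6.66 at 5% at 6 h, and at 33.0 and 8.73 at 24 h.

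Against 3 d they were ALDOC (1.55, adjusted p = 8.17e-08), EGFL7 (1.68, adjusted p = 1.19e-07), BNIP3 (1.11, adjusted p = 4.63e-07) and FAM178B (1.86, adjusted p = 1.45e-06). FAM178B was higher at 1% at 24 h (163 against 113 FPKM), lower at 3 d (93.4 against 236) and higher at 6 d (337 against 189.5). The 3 d group at 1% oxygen holds 2 libraries in this fit.

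Against 6 d they were VIM (2.38, adjusted p = 1.27e-14), KRT8 (2.51, adjusted p = 1.66e-14), KRT18 (1.97, adjusted p = 9.54e-14) and TIMP1 (2.86, adjusted p = 1.58e-12), a protease inhibitor of the extracellular matrix. At 6 d all 4 were lower at 1% than at 5%, by -1.70 for KRT8 to -2.50 for TIMP1. TIMP1 was at 492 FPKM at 1% and 2789 at 5% at 6 d, and at 236 and 184.5 at 24 h.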

How the results depend on the processing

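Of 53 called genes that were followed through the alternatives, 15 kept their call and direction in every one in which they were tested: ALDOC, BHLHE40, BNIP3, BNIP3L, EGFL7, EGLN3, HK2, KDM3A, KRT8, P4HA1, PDK1, PFKFB4, RBM3, SEMA4C and SLC6A8 (SLC6A8 was below the filter of 5 FPKM). Of the named genes not called, EPAS1 gained a call in 3 of 13 alternatives, KRT18 and TIMP1 in 2 of 14, and MYC, SLC2A1 and TFRC in 1 of 14; for EPAS1, KRT18, MYC and SLC2A1 the fit of 35 libraries was among them. Only VEGFA and ALAS2, neither of them called, changed sign: VEGFA went from 0.0221 to -0.0485 with quantile normalization, to -0.0404 without replicate 3 of 5% oxygen and to -0.0317 without replicate 3 of 1% oxygen (from -0.0404 to 0.0699 over the libraries left out in turn), and ALAS2 from 0.115 to -0.0917 without replicate 3 of 1% oxygen (up to 0.228 without replicate 2). The 146 calls (125 higher, 21 lower) became 295 with quantile normalization (108 lower), 31 with no filter (27 and 4), 78 in a fit of all 36 libraries (70 and 8) and 309 in that of 35 (209 and 100). Rescaling to TPM gave 32 lower calls. The replicate number as a block gave 38 calls (33 and 5). Deviations of same-numbered libraries correlated by 0.01, -0.09 and 0.14. With 3 libraries a group this cannot settle whether the numbers pair the samples, and the labels do not say. Leaving out a library gave 19 to 170 calls, 17 to 144 of them higher and 2 to 26 lower, in fits that hold fewer samples. A filter of 5 FPKM and a pseudocount of 0.1 gave counts within 1.5 times the first. The interaction counts were 23 (6 h), 344 (3 d) and 983 (6 d) with TPM, 9, 461 and 453 with all libraries, and 28 (6 h) and 124 (3 d) with only the 4 groups of the contrast; with no filter that for 3 d was 2307. With a library left out they ranged from 31 to 133 (6 h) and from 115 to 1153 (3 d); that for 3 d was 115 without replicate 1 of 1% oxygen at 3 d, which left 1 library assumed to vary like the other groups. The cause of these changes was not tested. Without counts, the counting error of weak genes is unknown.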
